A study of Mus musculus with 2 samples.

Results

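Proneural and neurogenic basic helix-loop-helix (bHLH) factors are transcription factors that move neural progenitors towards neuronal differentiation. The 9 genes described here are Neurog1, Neurog2, Neurod1, Neurod2, Neurod4, Atoh1, Ptf1a, Nhlh1 and Nhlh2. They were chosen by name from the 43346 Ensembl genes of the tables. The study measured total RNA from the midbrain of B6NCrl mouse embryos, a C57BL/6 substrain, at embryonic day 15.5. It has 1 group of 2 libraries: replicate 1 came from 78 pooled embryos and replicate 2 from 62, both sexes together, with no mutant and no treatment. Each library started from 10 ng of RNA longer than 200 nt with ERCC spike-ins, synthetic RNAs of known amount. The libraries held 38966386 and 40419493 expected counts, so the only comparison between samples that the design allows is between these pools.

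bHLH factors bind DNA as dimers. The proneural factors pair with the widely expressed E proteins Tcf3, Tcf4 and Tcf12 and bind E-boxes, which have the form CANNTG; Id proteins bind the E proteins and keep the pair off DNA. A cell that turns on Neurog1 or Neurog2 displays Notch ligands, and its neighbours answer with Hes and Hey repressors that hold the same bHLH genes down. Neurod1, Neurod2, Neurod4, Nhlh1 and Nhlh2 act later, as the daughter cell leaves the cell cycle. Atoh1 and Ptf1a are best known for setting apart excitatory and inhibitory lineages of the hindbrain and cerebellum. In the midbrain Neurog2 takes part in making dopaminergic and other neurons.

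What the 9 genes share at the sequence level is the basic region, the part of the domain that touches the E-box. For every gene, 36 coding bases around conserved codons of this region are shown, because they define the family and show how near the relatives are to each other. The stretch was not fitted to the borders of the region. Capitals mark the 13 bases that are the same in all 9. Some of these are the same because of the way the stretches were located, and they count in every pair below. The stretches were read 5′ to 3′ on the coding strand from GENCODE M21 transcripts and located by the conserved arginine and glutamate codons of the family.
Neurog1: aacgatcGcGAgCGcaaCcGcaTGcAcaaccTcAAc
Neurog2: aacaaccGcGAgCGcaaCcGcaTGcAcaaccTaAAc
Neurod1: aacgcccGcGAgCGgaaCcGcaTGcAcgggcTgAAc
Neurod2: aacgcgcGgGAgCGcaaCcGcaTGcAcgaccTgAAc
Neurod4: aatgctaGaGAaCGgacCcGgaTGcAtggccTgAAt
Atoh1: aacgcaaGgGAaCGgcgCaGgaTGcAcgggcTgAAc
Ptf1a: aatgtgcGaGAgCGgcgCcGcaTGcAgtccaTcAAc
Nhlh1: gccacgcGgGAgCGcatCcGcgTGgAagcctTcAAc
Nhlh2: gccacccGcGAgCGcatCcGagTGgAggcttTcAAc

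In mm10 these stretches lie in the only exon of Neurog1 (chr13:56251603-56251638, minus strand) and of Atoh1 (chr6:64729806-64729841, plus strand). In Ptf1a the stretch lies in exon 1 of 2 (chr2:19446356-19446391, plus strand). In the other genes it lies in exon 2 of 2. These are Neurog2 (chr3:127634080-127634115, plus strand), Neurod1 (chr2:79454684-79454719, minus strand), Neurod2 (chr11:98327920-98327955, minus strand), Neurod4 (chr10:130271092-130271127, minus strand), Nhlh1 (chr1:172054022-172054057, minus strand) and Nhlh2 (chr3:102012900-102012935, plus strand).

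Among the 36 pairs of genes, 17 to 33 of the 36 bases were identical, with a median of 23. Neurog1 and Neurog2 were the most alike (33 of 36, or 91.7%). Nhlh1 with Nhlh2, Neurod1 with Neurod2, and Neurog1 with Neurod2 each shared 31 bases (86.1%). The likeness stays short over the whole transcripts: the longest exact run in common was 26 nt (Neurog1 with Neurog2), then 25 nt (Neurod1 with Neurod2) and 20 nt (Nhlh1 with Nhlh2). Transcript length exceeded effective length by 99 nt in the tables, so each of these runs was shorter than that difference. The posterior standard deviation of the count, which the tables give as a measure of uncertain read assignment, was 0 for 7 of the 9 genes and 0.04% of the count for Neurod1. It was 7.77% and 5.88% for Ptf1a in replicates 1 and 2.

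Of the 9 genes, 8 reached 1 TPM (the deposited level, scaled by effective length and library) in both libraries. The same held for 62.4% of all 21474 protein coding genes and 35.4% of all Ensembl genes. Only Ptf1a stayed below. The 9 genes summed to 74.4 TPM in replicate 1 and to 70.5 TPM in replicate 2. Nhlh2, Neurod1 and Neurog2 held 75.1% and 81.5% of that sum. The 9 genes had a median of 5.10 TPM in replicate 1 and of 3.22 TPM in replicate 2 (4.16 ± 1.33, SD, n = 2). In bulk tissue fewer cells of a type and less RNA per cell cannot be told apart, so each level below is a level of the whole dissected midbrain.

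The factors of early differentiation are described first. Neurog2, which starts neuronal differentiation and activates Notch ligands, lies on chromosome 3 (mm10 chr3:127633135-127635631, plus strand). It stood at 13.5 TPM in replicate 1 and 12.3 TPM in replicate 2 (672 and 630 counts), above 37.6% of expressed protein coding genes. Its relative Neurog1 (chr13:56250478-56252163, minus strand), needed for many cranial sensory neurons, stood at 5.10 and 3.22 TPM (186 and 121 counts), above 15.4% of expressed protein coding genes. Neurog2 was therefore the higher of the 2 neurogenins in both libraries, 2.65-fold in replicate 1 and 3.81-fold in replicate 2, and the ranges did not overlap.

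Among the NeuroD genes, which carry neurons through differentiation, Neurod1 was the highest. Neurod1 (chr2:79452521-79456751, minus strand) stood at 17.6 TPM in replicate 1 and 17.1 TPM in replicate 2 (1079 and 1082 counts). Neurod2 (chr11:98325415-98329648, minus strand), best known from cortical and other excitatory neurons, stood at 7.41 and 5.27 TPM (527 and 387 counts). Neurod4 (chr10:130268152-130280240, minus strand), a factor of retina and brainstem neurogenesis, stood at 2.30 and 1.53 TPM (174 and 120 counts). The order Neurod1, Neurod2, Neurod4 held in both libraries with no overlap. Neurod1 was 2.37-fold and 3.24-fold the level of Neurod2, and Neurod2 was 3.22-fold and 3.44-fold the level of Neurod4. Neurod6, a further NeuroD gene of pallial neurons, stood at 18.4 and 14.1 TPM, 2.49-fold and 2.67-fold the level of Neurod2. Neurod1 lies within the span of Cerkl on the same strand, and Cerkl was at 0.93 and 0.65 TPM. It also overlaps the antisense lincRNA Gm26755, which had 3.08 counts in replicate 1 and 0 in replicate 2. Cerkl held 30.9 and 30.6 counts, few beside those of Neurod1. Strand use in counting is not given in the sources used here, so reads of Neurod1 and of the antisense gene could not be told apart.

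Nhlh2, expressed in neurons just after they leave the cell cycle and known in mice for its part in hypothalamic control of body weight and fertility, was the highest of the 9. Nhlh2 (chr3:102010076-102015492, plus strand) stood at 24.8 TPM in replicate 1 and 28.1 TPM in replicate 2 (1883 and 2203 counts), above 57.2% of expressed protein coding genes. Its relative Nhlh1 (chr1:172052292-172057573, minus strand) stood at 2.06 and 1.63 TPM (114 and 93 counts), above 5.07% of them. Of the paralog pairs compared, this one was the widest apart: the level of Nhlh2 was 12.0-fold that of Nhlh1 in replicate 1 and 17.2-fold in replicate 2.

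The lineage-setting genes were the lowest. Atoh1 (chr6:64729125-64731245, plus strand), the factor of rhombic lip progenitors, stood at 1.27 TPM in replicate 1 and 1.17 TPM in replicate 2. These levels rest on 59 and 56 counts, and the 95% exact Poisson intervals of both reached below 1 TPM (0.967 to 1.64 and 0.882 to 1.52 TPM). Ptf1a (chr2:19445663-19447501, plus strand), the factor of inhibitory cerebellar and dorsal spinal neurons and of the exocrine pancreas, stood at 0.40 and 0.21 TPM. It had 13 and 7 counts, with intervals of 0.210 to 0.675 and 0.0828 to 0.424 TPM, against floors (3 counts) of 0.0912 and 0.0883 TPM. The point values of Ptf1a lay above the floor in both pools, but the interval in replicate 2 reached below it. Both intervals lay below 1 TPM. The antisense gene Ptf1aos, which overlaps it, was listed at 0 in both libraries. Such intervals cover counting error only, since the tables do not separate PCR duplicates from independent molecules.

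Ranked by mean level the order was Nhlh2, Neurod1, Neurog2, Neurod2, Neurog1, Neurod4, Nhlh1, Atoh1 and Ptf1a. Of the 8 neighbouring pairs in this order, 7 kept it in both libraries with ranges that did not overlap. Neurod4 and Nhlh1 changed places between the pools. For 6 pairs the counting intervals were also separate in both libraries, while those of Nhlh1 and Atoh1 overlapped in replicate 2. The narrowest gap between ranges lay between Neurod2 and Neurog1, whose lowest and highest values were 5.27 and 5.10 TPM. Each gene had 1 transcript in the transcript tables, so the levels hold no mixture of annotated isoforms.

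**Figure D1:**
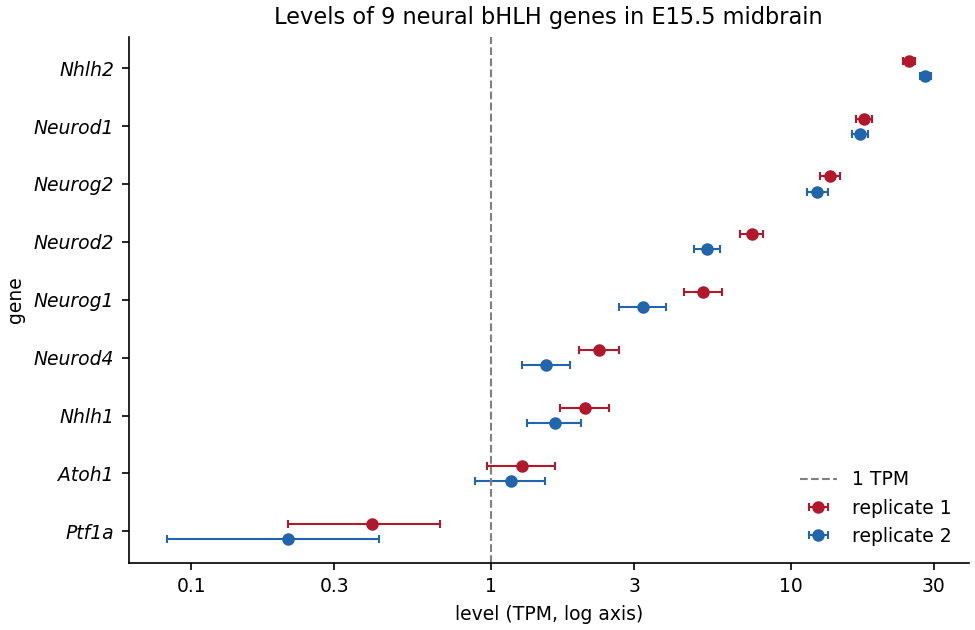
Level in TPM (log axis) of the 9 bHLH genes in replicate 1 (upper point of each row) and replicate 2 (lower point), with 95% exact Poisson intervals that cover counting error only. Nhlh2, Neurod1 and Neurog2 lie above 12 TPM in both pools, and Ptf1a lies below the dashed line at 1 TPM.

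On the same TPM scale, each E protein gene was above all 9 bHLH genes, and each Id gene was above 8 of them, while Id1 and Nhlh2 overlapped. The 3 E proteins, the dimer partners, had a median of 48.9 TPM in replicate 1 and 47.8 TPM in replicate 2 (48.4 ± 0.778, SD, n = 2). Tcf4 was the highest (91.9 and 82.9 TPM), followed by Tcf12 (48.9 and 47.8 TPM) and Tcf3 (46.1 and 36.9 TPM). The 4 Id genes, which encode the inhibitors of E protein binding, had a median of 116 and 105 TPM. Id4 led (233 and 214 TPM), Id3 (124 and 103 TPM) and Id2 (109 and 107 TPM) changed places between the pools, and Id1 at 27.7 and 25.0 TPM. Summed, the Id genes reached 6.63 times the level of the 9 bHLH genes in replicate 1 and 6.38 times in replicate 2. The E proteins reached 2.51 and 2.38 times. These are RNA levels of mixed tissue, and which cells hold both partners was not tested.

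Of the 8 Hes and Hey genes, 6 reached 1 TPM in both libraries (median 7.66 ± 0.290 TPM, SD, n = 2). The highest was Hes6, which is known to favour neuronal differentiation and not to repress it, with 174 and 156 TPM. Hes5, a repressor downstream of Notch, had 122 and 94.7 TPM, while the related repressor Hes1 had 9.12 and 10.1 TPM. Hey1 stood at 18.3 and 18.2 TPM, Heyl at 5.79 and 5.61 TPM and Hey2 at 2.92 and 2.72 TPM. Hes7 (0.70 and 0.73 TPM) and Hes3 (0.49 and 0.48 TPM) were below 1 TPM. All 5 Notch ligand genes passed 1 TPM, with a median of 9.98 ± 0.580 TPM. Dll3 (19.1 and 18.6 TPM) and Dll1 (19.7 and 16.7 TPM) were the highest of them, close to Neurod1 in level.

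Of 12 other neural bHLH genes, 10 reached 1 TPM in both libraries, against 8 of the 9 genes described here, and their median was 3.37 ± 0.205 TPM (SD, n = 2). Olig1, a factor of the oligodendrocyte lineage, was the highest (67.0 and 64.6 TPM), ahead of Neurod6. Ferd3l (0.71 and 0.58 TPM) and Neurog3 (0.15 and 0.06 TPM), the neurogenin of pancreatic endocrine cells, did not reach 1 TPM. All 20 genes listed as downstream of proneural factors passed 1 TPM, with a median of 20.3 TPM in both libraries. Elavl4 (271 and 280 TPM) and Dcx (222 and 250 TPM), both genes of young neurons, were the highest. Dll1, Dll3, Hes6, Dcx and Elavl4 also stand in other lists, so the lists are not separate evidence.

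**Figure D2:**
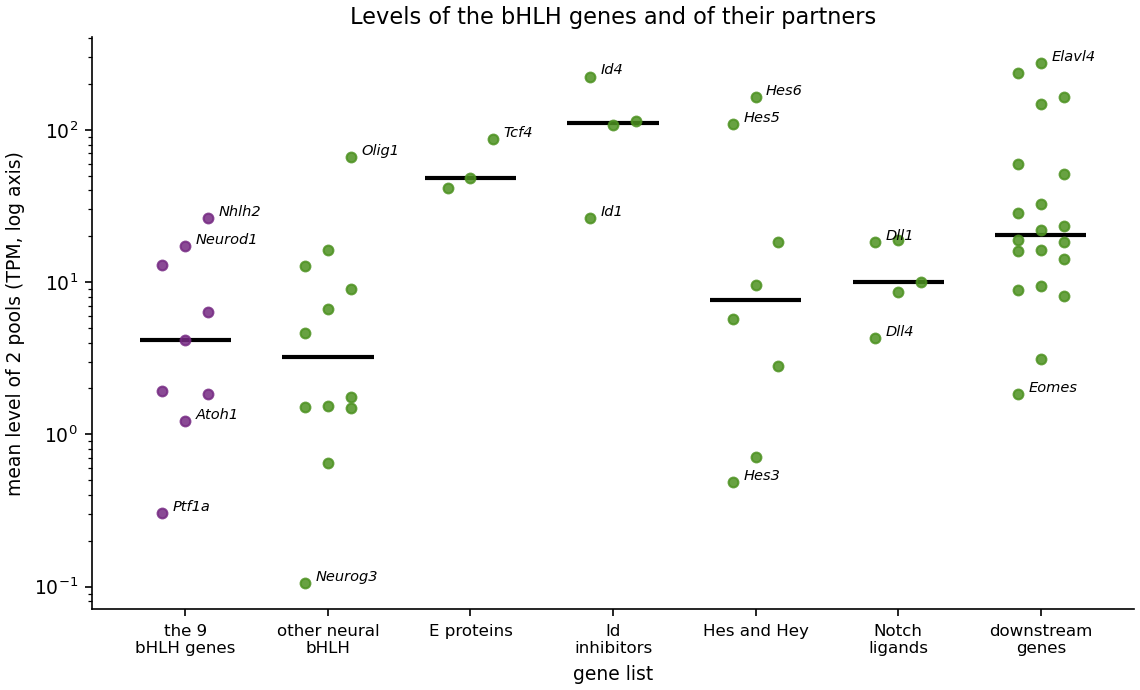
Mean level over the 2 pools in TPM (log axis) of each gene of 7 lists, with a bar at the median of each list. The medians are 48.4 TPM for E proteins and 20.3 TPM for downstream genes, against 4.16 TPM for the 9 bHLH genes.

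The genes tied to the Atoh1 lineage were all above Atoh1 itself in both libraries, while those tied to Ptf1a lay on either side of it. All 8 genes of the Atoh1 list passed 1 TPM, with a median of 43.5 TPM in replicate 1 and 34.3 TPM in replicate 2. Mab21l1 (128 and 117 TPM) and the LIM homeobox gene Lhx9 (114 and 99.1 TPM) were the highest. Of the 10 genes of the Ptf1a list, 6 passed 1 TPM, with a median of 2.26 and 2.51 TPM. Tfap2b (194 and 212 TPM) and Lhx5 (31.1 and 34.7 TPM) were the highest by mean level, with Lhx1 at 30.3 and 35.3 TPM. Rbpj, the Notch effector that joins Ptf1a in its active complex, stood at 24.5 and 25.4 TPM. Its relative Rbpjl, which takes that place in the pancreas, was at 0.04 TPM in both libraries. Prdm13, a direct partner downstream of Ptf1a, was at 0.31 and 0.08 TPM, Skor2 at 0.13 and 0.18 TPM, and Pax2 at 0.56 TPM in both. Many genes of these lists are also used by midbrain cells outside those lineages, so their levels were not tied to either factor here.

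Short promoter windows were searched for E-boxes, the sites that bHLH dimers bind and through which some of these factors are known to act on each other's genes. RefSeq (GRCm38.p6) gave 10 windows for the 9 genes, each the 250 bases before a start. CANNTG, which reads the same on both strands, occurred in 4 of the 9 genes (Neurod1, Neurod2, Nhlh1 and Nhlh2) and in 66.2% of all 32851 windows. CAGATG, searched on both strands and itself one of the CANNTG words, occurred in 3 genes and in 14.4% of all windows. These 3 stretches, each 60 bases with the word in capitals, are shown because they hold the word in the Nhlh pair and in Neurod2.
Nhlh2: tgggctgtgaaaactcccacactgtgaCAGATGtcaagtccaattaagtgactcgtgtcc
Nhlh1: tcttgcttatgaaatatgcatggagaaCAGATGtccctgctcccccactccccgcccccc
Neurod2: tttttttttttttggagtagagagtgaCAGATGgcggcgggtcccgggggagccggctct

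The words begin 127 bases before the RefSeq start of Nhlh2 (stretch at chr3:102009991-102010050, plus strand). They begin 203 bases before that of Nhlh1 (chr1:172057767-172057826, minus strand) and 118 before that of Neurod2 (chr11:98329731-98329790, minus strand). These RefSeq starts differ from the GENCODE starts used for the gene positions given earlier. The Nhlh2 window, which ends at chr3:102010144, reaches past the GENCODE start of that gene at 102010076. Nhlh1 and Nhlh2 both carry the word, and their levels are 12.0-fold and 17.2-fold apart. Whether the word bears on level was not tested. The windows of Neurog1, Neurog2, Neurod4, Atoh1 and Ptf1a hold no CANNTG, which says only that these letters are not in those bases. A match is a description, and binding was not measured.

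The remaining question is how far the 9 genes differed between the 2 pools. None of the 9 differed by 2-fold with an adjusted p under 0.05, against 1.63% of the 18269 genes tested (0.898% higher in replicate 1 and 0.733% lower in it). At an adjusted p under 0.05 with no fold threshold, 3 were higher in replicate 1 (Neurod2, Neurog1 and Neurod4) and 1 was lower in it (Nhlh2), 4 of 9 in all. Over all genes tested 19.3% passed, 9.96% higher in replicate 1 and 9.38% lower in it. The same 4 genes had an unadjusted p under 0.05. Of the 9 ratios of replicate 1 over replicate 2, 8 were above 1, as were 50.3% of all ratios. The median log2 ratio was 0.34 for the 9 genes and 0.00 for all genes tested. The p-values come from a two-sided exact binomial test on the counts of 2 libraries, so they compare these libraries and not conditions.

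Neurod2 was 1.41-fold higher in replicate 1 (95% interval 1.23 to 1.61, adjusted p = 8.9e-06 by the exact binomial test). Neurog1 was 1.59-fold higher (1.25 to 2.01, adjusted p = 0.001 by the exact test). Neurod4 was 1.50-fold higher (1.18 to 1.90, adjusted p = 0.0064 by the exact test). These ratios lie near or beyond the upper edge of what most genes showed, since the 5th and 95th percentiles of the log2 ratio were -0.51 and 0.51 over all genes, and theirs were 0.49, 0.66 and 0.58. The log2 ratio of Nhlh2 fell well within that range at -0.18 (ratio 0.882, 0.829 to 0.938, adjusted p = 0.00089 by the exact test). With the spread of a typical gene between the pools taken into account, in edgeR's exact test with a common dispersion, the 4 calls were lost. Adjusted p was then 0.16 for Neurod2, 0.12 for Neurog1, 0.28 for Neurod4 and 1 for Nhlh2, and 1.29% of all genes passed (0.865% with the 2-fold threshold, which 0 of the 9 met).

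The other 5 genes missed the threshold. Their intervals cover counting error only and not further spread between pools. The ratio was 1.03 for Neurod1 (0.945 to 1.12) and 1.10 for Neurog2 (0.986 to 1.23) at 95%, so differences beyond 1.23-fold lay outside both intervals. For Nhlh1 it was 1.26 (0.953 to 1.68) and for Atoh1 1.09 (0.741 to 1.60). For Ptf1a the ratio was 1.92, but with 13 and 7 counts its interval ran from 0.711 to 5.67. At this depth the interval held no difference as well as differences beyond 2-fold. When libraries were scaled by spike-in totals, which moved the median log2 ratio of all genes by 0.09, Neurog2 passed (adjusted p = 0.02 by the exact test) and Nhlh2 no longer did (0.1). No ratio of the 9 changed direction under any scaling tried.

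**Figure D3:**
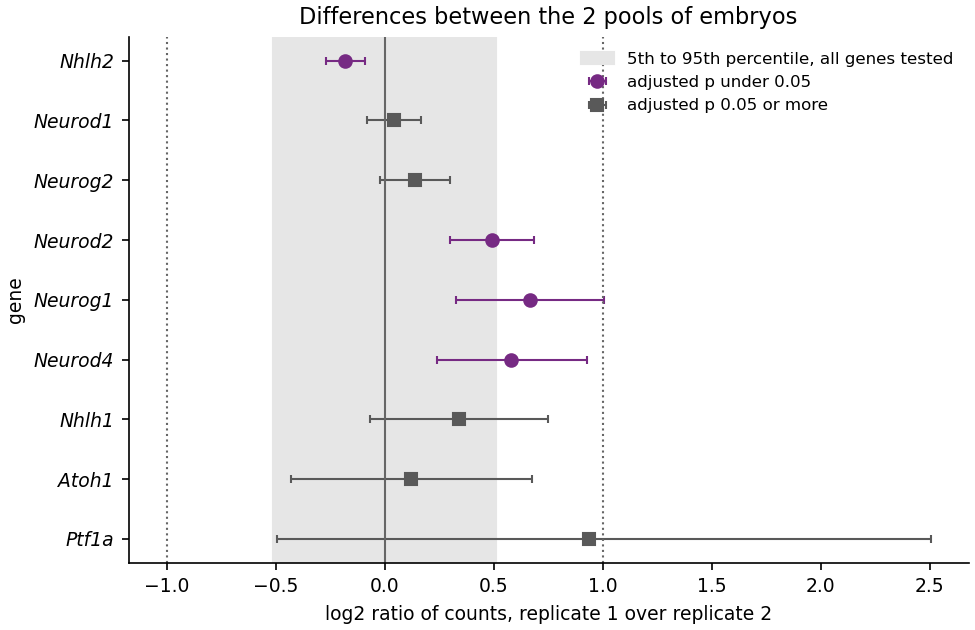
Log2 ratio of counts, replicate 1 over replicate 2, of each of the 9 bHLH genes with its exact 95% interval, over the 5th to 95th percentile of all genes tested (grey band, -0.51 to 0.51), with dotted lines at 2-fold. Nhlh2 lies to the left of 0 and the other 8 to the right, and no gene of adjusted p under 0.05 lies beyond 2-fold.

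Genes acting with the 9 factors also differed between the pools by the exact binomial test, which reads counting error alone. In edgeR's exact test with a common dispersion, the only genes of any list described here to pass were Barhl1, Emx1, Six6, Ccnb1, Eomes and the 4 genes of liver and skin. All 3 E proteins were higher in replicate 1 at an adjusted p under 0.05 (ratios 1.12 for Tcf4, 1.10 for Tcf12 and 1.20 for Tcf3). So were Id3 (1.20) and Id4 (1.09), Hes5 (1.26) and Hes6 (1.12), and the Notch ligand genes Dll1 (1.12) and Dll3 (1.13). These are ratios of counts, which leave out the effective length that TPM takes in. On the TPM scale Tcf12 (48.9 and 47.8 TPM) and Dll3 (19.1 and 18.6 TPM) differed less than their count ratios. None of the E protein, Id, Hes, Hey or Notch ligand genes was higher in replicate 2 at that threshold. Among other neural bHLH genes Neurod6 (1.31) was higher in replicate 1 and Olig3 was lower in it (0.580), of 11 tested. Of the 20 downstream genes, 8 were higher in replicate 1 and 4 were lower at that threshold, with a median log2 ratio of 0.05. By the same test and threshold, 9.96% of all genes tested were higher in replicate 1 and 9.38% were lower.

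Markers of cell stage were split between the pools as well. Calls of these markers use an adjusted p under 0.05 in the exact binomial test. Over all genes tested, 9.96% passed as higher in replicate 1 and 9.38% as lower. High counts let small ratios pass, as for Stmn1 (ratio 0.986, adjusted p = 0.0017 by the exact binomial test). All 8 progenitor genes had ratios above 1, 5 of them at an adjusted p under 0.05, with a median of 59.8 TPM in replicate 1 and 54.0 TPM in replicate 2 (sums 1626 and 1538 TPM). Fabp7 (989 and 963 TPM) and Vim (344 and 326 TPM), both genes of radial glia, were the highest. All 6 genes of dividing cells had ratios above 1, 5 of them past the threshold, with a median of 32.1 and 25.5 TPM (sums 226 and 201 TPM), led by Pcna (79.4 and 75.1 TPM) and Cdk1 (54.2 and 51.0 TPM). Ccnb1, a mitotic cyclin, had the ratio furthest from 1 of these (1.45). Of 7 young neuron genes, 2 were higher in replicate 1 and 5 were lower, with a median of 936 and 961 TPM (sums 10653 and 10807 TPM). The highest were Stmn1 (6162 and 6249 TPM) and Tubb3 (1782 and 1731 TPM), which encode proteins of the neuronal microtubule system. Of 6 later neuron genes, none was higher and 5 were lower at that threshold, while Rbfox3 had a ratio of 1.01 that did not pass. Their median was 107 and 115 TPM (sums 697 and 752 TPM), led by Nefl (210 and 222 TPM) and Gria2 (161 and 180 TPM). In edgeR's exact test with a common dispersion, Ccnb1 was the only marker of these lists to pass, and none of the 9 genes did. No marker of these 4 lists was at 0, and the part that cell makeup had in the ratios of the 9 genes was not tested. Hes5 is a member of the progenitor list, and Dcx and Elavl4 are among the young neuron genes.

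**Figure D4:**
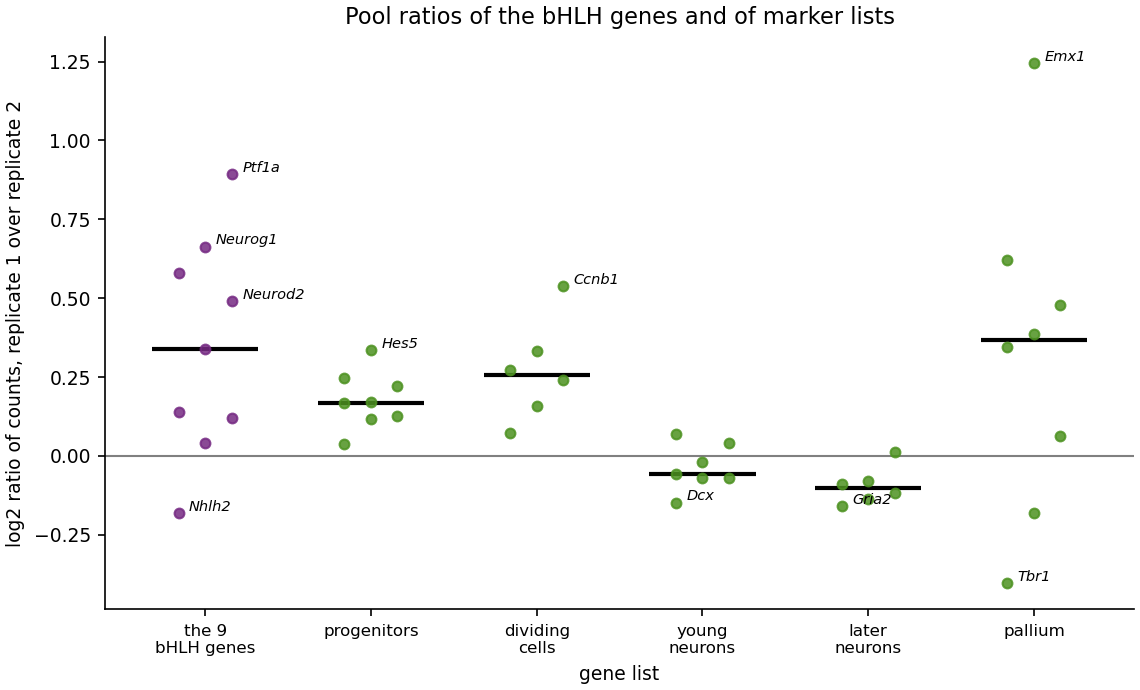
Log2 ratio of counts, replicate 1 over replicate 2, of each gene of the 9 bHLH genes and of 5 marker lists, with a bar at the median of each list. The medians are 0.34 for the bHLH genes, 0.17 for progenitors, 0.26 for dividing cells, -0.06 for young neurons, -0.10 for later neurons and 0.37 for pallial genes.

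The midbrain label was set against its markers: 8 of 9 midbrain genes reached 1 TPM in both libraries, led by Meis2 (71.7 and 61.1 TPM) and Otx2 (66.4 and 66.1 TPM), with En2 at 1.21 and 0.76 TPM. The medians of the 9 were 9.42 and 9.25 TPM. Tissues next to the midbrain matter here because several of the 9 genes are strong in them. The pallium, where Neurod2 and Neurog2 are also active, was represented by 8 genes, of which 6 reached 1 TPM (42.8 TPM in sum in replicate 1 and 38.7 TPM in replicate 2, medians 2.48 and 2.19 TPM, none at 0). The highest were Neurod6 and Emx2 (12.8 and 14.9 TPM). Emx1 was 2.39-fold higher in replicate 1 and Neurod6 1.31-fold, while Tbr1 was lower in it (0.755), at an adjusted p under 0.05 by the exact binomial test. By that test 9.96% of all genes tested were higher in replicate 1 and 9.38% were lower. Eomes, the factor of pallial intermediate progenitors that follows Neurog2 there, was also lower in replicate 1 (1.29 and 2.41 TPM, ratio 0.568). Neurod2, Neurod6 and Emx1 were therefore higher in the same pool while Tbr1 and Eomes were lower in it, and what pallial RNA contributed to Neurod2 was not tested.

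Of 10 isthmus and cerebellum genes, 8 reached 1 TPM (144 and 124 TPM in sum, medians 8.84 and 8.60 TPM, none at 0). Barhl1, a gene of the Atoh1 lineage, was the highest (64.1 and 43.8 TPM, ratio 1.45), followed by mean level by Pax6 (19.2 and 18.4 TPM) and Gbx2 (15.2 and 19.6 TPM), which changed places between the pools. At an adjusted p under 0.05 by the exact binomial test, En1 (1.35), En2 (1.59) and Barhl1 were higher in replicate 1. Gbx2 (0.751) and Zic1 (0.875) were lower. Over all genes tested 9.96% were higher and 9.38% lower. Within the Atoh1 list 5 of 8 genes were higher in replicate 1 at that threshold and Zic1 was lower. By ratio alone 6 were above 1 and 2 below. Atoh1 itself had a ratio of 1.09 that did not pass. Within the Ptf1a list none of the 8 genes tested was higher in replicate 1 at that threshold. There 4 were lower (Tfap2b 0.890, Lhx5 0.895, Lhx1 0.901 and Tfap2a 0.775). By ratio alone 1 was above 1 and 7 below.

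Sensory ganglia, a main site of Neurog1, were represented by 5 genes, of which 4 reached 1 TPM (94.4 and 87.9 TPM in sum, medians 4.82 and 4.42 TPM, none at 0). Pou4f1 (57.8 and 53.6 TPM) and Isl1 (27.9 and 25.0 TPM), both also midbrain genes, were the highest. At an adjusted p under 0.05 by the exact binomial test, both were higher in replicate 1 (count ratios 1.09 and 1.35). The other 3 genes did not pass. By that test 9.96% of all genes tested were higher in replicate 1. None of the 5 genes passed in edgeR's exact test with a common dispersion. The part of sensory ganglia in the ratio of Neurog1 was not tested.

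Genes of the retina and pancreas, tissues in which some of the 9 factors act, were at low levels. Of 5 retinal genes none reached 1 TPM in both libraries, and Rax stood highest by mean level (1.20 and 0.83 TPM). The list summed to 2.79 and 1.60 TPM, with medians of 0.22 and 0.13 TPM. Six6, also a gene of the hypothalamus, was next by mean level and 2.53-fold higher in replicate 1 (1.23 and 0.49 TPM). Of 6 pancreatic genes only Nkx6-1, a gene of ventral neural progenitors too, reached 1 TPM in both (2.14 and 1.64 TPM), ahead of Cpa1 (0.51 and 0.73 TPM). That list summed to 2.95 and 3.24 TPM, with medians of 0.15 and 0.435 TPM, and Pdx1 and Ins1, defining genes of the pancreas, were at 0 in both pools. By the exact binomial test, the 4 genes of liver and skin all differed by more than 2-fold between the pools at an adjusted p under 0.05. So did Six6, and 1.63% of all genes tested met these thresholds. Alb had 209 counts in replicate 1 and 4 in replicate 2, and Serpina1b 99 and 2. The keratin genes ran the other way, with 4 and 238 counts for Krt5 (0.08 and 4.72 TPM) and 5 and 176 for Krt14 (0.21 and 5.02 TPM). In the pool where it was higher, each of these genes stood above Atoh1 and Ptf1a. The 4 genes of liver and skin summed to 8.15 and 9.91 TPM, with medians of 1.74 and 2.41 TPM. None of the 4 reached 1 TPM in both pools.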

How the data were processed

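Per the labels, mirVana extraction gave the RNA. The authors deposited a gene and a transcript table per library; per the file headers these hold expected counts, TPM, FPKM and each transcript's percent share of its gene. The build was mm10 and the annotation GENCODE M4, per the authors' notes, with aligner, counter, versions and strand use not given in the sources used here. TPM was scaled over all rows, spike-ins included (2.30% and 2.42% of counts, left out of tests and library sizes). Coordinates are from GENCODE M21, same build; of 43346 genes 42462 had a symbol.

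Expected counts were rounded to whole numbers. Genes with a mean of 10 or more were compared between pools by a two-sided exact binomial test with TMM library sizes (edgeR 4.0.16) and Benjamini-Hochberg adjustment; ratios are of scaled counts, and log2 ratios add 0.5. The test was checked on data simulated with counting error alone, so the check does not cover further spread between pools. Alternatives used DESeq2 1.42.0 size factors, total counts, spike-in totals, no low-count filter, posterior mean counts and edgeR's exact test with 1 dispersion estimated from both libraries as replicates. All 9 genes are reported; of other lists the 2 highest, those that differed and partners, inhibitors or repressors. The genes and lists were chosen with earlier results of these data known. Some genes of these lists are not reported here and were left out of the lists' counts, sums and medians. P-values of the exact binomial test measure only counting error in these libraries. Those of edgeR's exact test also take in the dispersion estimated from both libraries.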

Additional observations from a re-analysis of the deposited data

How the results depend on the processing

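The number of genes expressed was 8 at 1 TPM and at 0.5 TPM, with posterior mean TPM, after rescaling over Ensembl genes and in either library alone, and 5 at 2 TPM. The median level was 4.09 to 4.41 TPM under other scalings and 3.22 to 5.10 TPM with 1 library left out. The count of genes that differed between pools by 2-fold was 0 under all 6 other fits, and 4 when the fold threshold was dropped. Of 53 alternative ratios of single genes, 5 lost and 1 gained an adjusted p under 0.05 and 0 changed direction; for Ptf1a rounded posterior mean counts gave no value because it fell under the filter. The order of the 9 genes was the same with FPKM and with posterior mean TPM. Of 36 alternative levels, 3 moved by more than the SD between pools (Neurod1 and Atoh1), and with a pseudocount of 0.1 in place of 1, 4 of 8 log2 differences between neighbours grew by more than it. No paired analysis was possible because there was 1 group. With 2 pools of 1 group, no difference between conditions could be tested, and counts limit what can be said of Ptf1a and Atoh1.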
